A study of Arabidopsis thaliana and Arabidopsis lyrata subsp. lyrata and Arabidopsis halleri subsp. gemmifera with 10 samples.

Results

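Leaves of a hybrid between A. thaliana and A. lyrata were compared with the mean of its parent species, on 6 of the 10 arrays of the series. The samples are those titled as the A. thaliana-A. lyrata hybrid, as A. thaliana and as A. lyrata, with 2 biological replicates and 1 array each. A. thaliana was the Col accession and A. lyrata was ssp. lyrata. Plants were kept at 22 C with days of 16 h light and 8 h dark, and mature leaves were taken before flowering. Which species was the seed parent, the ploidy of the hybrid and the number of plants behind a sample are unstated here. The other 4 arrays, from A. halleri ssp. gemmifera and the A. thaliana-A. halleri hybrid, entered the estimate of the spread and 1 comparison at the end.

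An interspecific hybrid carries chromosomes of both parent species in one nucleus, and factors of either species can act on the gene copies of both. If each copy kept the activity it has in its own species, the hybrid would lie at the mean of the parents, the mid-parent level. Expression at the level of a single parent, or outside the range of both, is therefore described as a deviation from mid-parent. Chloroplast and mitochondrial genomes are passed on mainly through the seed parent in these plants, so most hybrid plants carry the organelles of a single parent species.

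The Affymetrix ATH1 array used here carries probes designed on A. thaliana, and a sequence difference can lower the signal of an A. lyrata transcript. A signal in the hybrid is the sum over the transcripts of both species, and the copies were not told apart. Signals are in arbitrary units, with every array scaled to the same trimmed mean of 500. Differences are fitted on log2(signal + 9.24) with limma and given ± SE, so folds of weak genes are understated. A probe set was called at a Benjamini-Hochberg adjusted p under 0.05, and 16656 of the 22746 probe sets that are not controls were bright enough to be tested.

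The arrays differed in ways that bear on the comparison. The spiked-in hybridization controls, at equal leaf signal, were 3.64-fold brighter in A. lyrata and 1.79-fold brighter in the hybrid than in A. thaliana. All differences below are thus relative to the mean leaf signal on the same array. In whole leaves, fewer cells of a type and less RNA per cell cannot be told apart. A. thaliana replicate 2 stood apart: it correlated with replicate 1 at r = 0.878 across probe sets, against 0.907 between the A. lyrata arrays and 0.937 between the hybrid arrays. DFR, an enzyme of anthocyanin synthesis, gave a signal of 12.9 in A. thaliana replicate 1 and 13384 in replicate 2, and 52.7 and 405 in the hybrid. Of the leaf markers only RCA, the activase of Rubisco, was measured, and it lay in the top 1% of signals on every array. The root markers PYK10 and EXP7 lay in the lower part of the signals on all 10 arrays, at most at percentile 49.8.

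More genes fell below the arithmetic mid-parent than rose above it, an order that a geometric mid-parent turned. The hybrid was called above mid-parent for 278 probe sets (1.67% of those tested) and below it for 619 (3.72%), 897 in all (5.39%). At an unadjusted p under 0.05 the number was 3853. Both hybrid arrays lay on the called side for all 278 and all 619. The median difference was 1.502 on the log2 scale (2.83-fold) among those above and -2.07 (4.198-fold) among those below, and the median over all probe sets tested was -0.18. Changes over 4-fold were found for 64 probe sets above and 323 below. Of all 278 and 619, a symbol was known for 28 and 64, a locus alone for 95 and 225, and the remaining 155 and 330 are unnamed here.

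**Figure D1:**
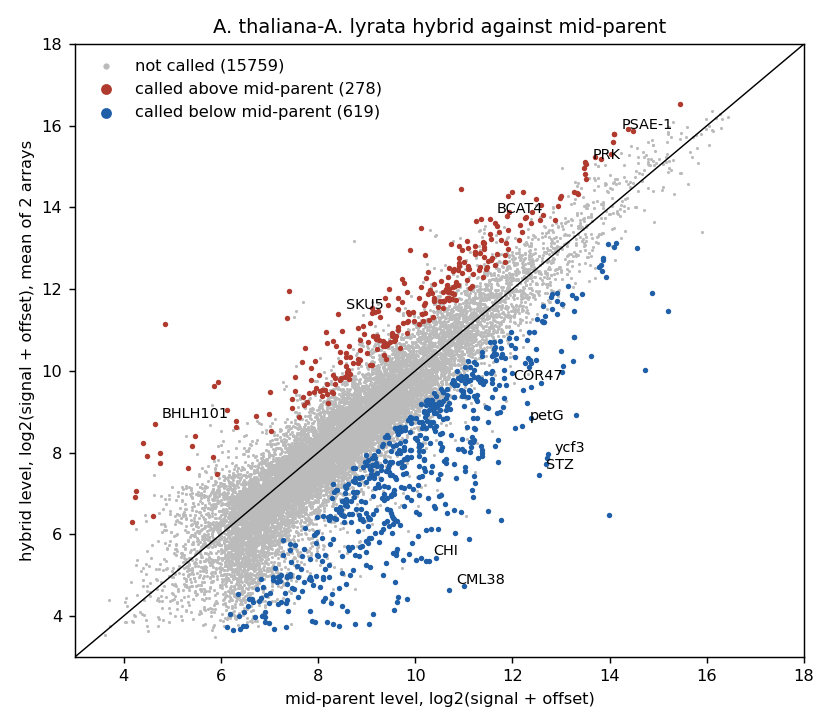
Each point is 1 of the 16656 probe sets tested. The x axis is the mid-parent level and the y axis the hybrid level (mean of 2 arrays), both as log2(signal + offset), with the line of equal levels in black. The 619 probe sets called below mid-parent (blue) reach farther from the line than most of the 278 called above it (red).

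These counts rested on few arrays and on the choice of mean. Without hybrid replicate 1 only 2 probe sets were called above and 34 below, and without hybrid replicate 2 the counts were 60 and 286. Without A. thaliana replicate 1 they rose to 1040 and 1714, and without A. lyrata replicate 1 or 2 they were 121 and 318 or 104 and 313. A geometric mid-parent, which lies lower where the parents differ, gave 544 above and 398 below. With the spike-in controls set equal, 180 were above and 675 below. All 892 of the called probe sets that could be tested there kept the sign of their difference, but many lost their call. Of the 278 called above on the main scale 104 stayed called, and of the 619 below 464 did.

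For most calls the hybrid differed by the test from 1 parent and not from the other. Of the 619 probe sets below mid-parent, 263 were called different from A. thaliana and not from A. lyrata, 206 from A. lyrata and not from A. thaliana, and 150 from both. Of the 278 above, 131 were called different from A. lyrata alone, 23 from A. thaliana alone and 124 from both. Each parent served in both kinds of test, so these counts are not independent. The hybrid was called higher than A. thaliana for 6.6% and lower for 4.95% of probe sets, and higher than A. lyrata for 10.3% and lower for 10.2%. This near balance depended on the scale: with the spike-in controls set equal, of 15874 probe sets tested on both scales 343 were called higher and 4026 lower than A. thaliana, and 5172 higher and 168 lower than A. lyrata. Quantile normalization gave 704 higher than A. thaliana, against 1100 with the main scaling. The parents themselves differed more often, with A. lyrata higher than A. thaliana for 25.8% and lower for 17.2%.

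Fewer calls lay outside both parents. The hybrid was called above both parents for 124 probe sets (0.744%) and below both for 120 (0.72%). The parents did not pass the test against each other for 103 of the 124 and 98 of the 120. Every hybrid array lay outside all 4 parent arrays for 270 of the 278 probe sets above mid-parent and 336 of the 619 below. Over all 16656 probe sets tested, called or not, the hybrid arrays lay above all parent arrays for 1288 and below them for 1313. With the spike-in controls set equal, the median of the 15874 probe sets tested on both scales was -0.75 against A. thaliana, 0.78 against A. lyrata and -0.25 against mid-parent. Calls above and below both parents then numbered 113 and 63.

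The share below mid-parent was larger where the parents were farther apart. Where A. thaliana was the higher parent by less than 2-fold, 112 of 3518 probe sets (3.18%) were above mid-parent and 84 (2.39%) below. Where it was higher by over 16-fold, 11 of 267 (4.12%) were above and 77 (28.8%) below. Where A. lyrata was higher by over 16-fold, 0 of 133 were above and 28 (21.1%) below. The gap and the mid-parent level use the same parent arrays, so this is a description. Among probe sets at least 4-fold higher in A. thaliana, the hybrid signal stood at a median of 35.1% and 45.2% of the way from A. lyrata to A. thaliana on hybrid arrays 1 and 2 (n = 1542). Among those at least 4-fold higher in A. lyrata it stood at 71.5% and 71.1% of that way (n = 1966). The quartiles were wide, at 6.13% to 68.1% and 16.1% to 76.2% in the first set. In the second they were 49.3% to 88.1% and 50.1% to 85.4%. On the main scale, the only one used here, the median hybrid signal thus lay nearer the lower parent in both sets.

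**Figure D2:**
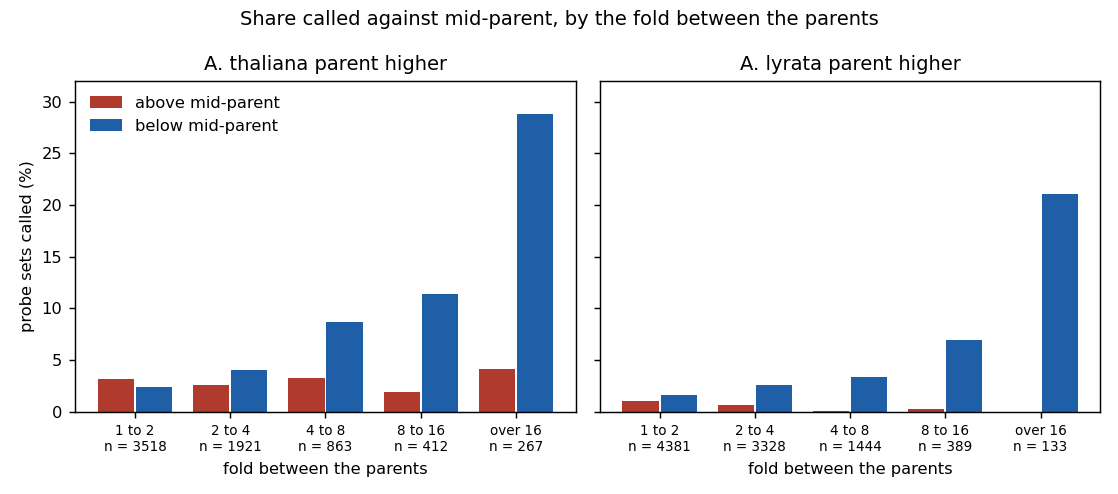
Bars give the percentage of probe sets called above (red) and below (blue) mid-parent in bins of the fold between the parents, with the number of probe sets n under each bin. The share below rises to 28.8% where A. thaliana is over 16-fold higher and to 21.1% where A. lyrata is, while the share above stays under 5% in every bin.

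PSAE-1, PRK and CHLI2, nuclear genes of photosynthesis and chlorophyll synthesis, were called higher in the hybrid than in either parent. With the spike-in controls set equal they stayed called above mid-parent (1.21, 1.18 and 1.51) but not above A. thaliana (adjusted p = 0.255, 0.241 and 0.125), and PSAE-1 and PRK also lost the latter call with quantile normalization. PSAE-1 (AT4G28750), a subunit of photosystem I, gave signals of 26014 and 23075 in A. thaliana, 9399 and 11794 in A. lyrata, with 60258 and 53144 in the hybrid. Both hybrid arrays exceeded all 4 parent arrays, and the level was 3.23-fold above mid-parent (log2 1.69 ± 0.21, adjusted p = 0.00520). PRK (AT1G32060), the Calvin cycle enzyme phosphoribulokinase, gave 18067 and 11461 in A. thaliana, 9288 and 8497 in A. lyrata, with 35488 and 32881 in the hybrid. Again the hybrid arrays lay above every parent array, 2.93-fold above mid-parent (1.55 ± 0.24, adjusted p = 0.0105). CHLI2 (AT5G45930), a magnesium chelatase subunit of chlorophyll synthesis, was at 771 and 316, 645 and 437, and 2131 and 1272 in the same order. That was 3.17-fold above mid-parent (adjusted p = 0.0367). Cpn60beta2 (AT3G13470), a chloroplast chaperonin subunit, gave 1155 and 392.1 in A. thaliana, 1822 and 1724 in A. lyrata, with 8410 and 3598 in the hybrid, 4.47-fold above mid-parent (adjusted p = 0.0277).

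Only a small part of each gene list had a probe set named here. Of 6 nuclear light-harvesting and photosystem genes tested, 1 was called above mid-parent (1.67% of all probe sets were) and 0 below (3.72%). Their median was 0.50 beside -0.18 for all probe sets. All 6 were called higher than A. thaliana (6.6% of all probe sets were), and 0 of 6 with the spike-in controls set equal or with quantile normalization. Among 4 Calvin cycle and photorespiration genes 1 was above and 0 below (median 0.76). RCA, at 31101 and 26882 in A. thaliana, 73049 and 66802 in A. lyrata, with 63777 and 65263 in the hybrid, was not called (0.39, adjusted p = 0.320).

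Chlorophyll synthesis held calls in both directions. Of its 5 measured genes, CHLI2 was above mid-parent, PORB below, and GSA1, HEMB1 and CHLM did not pass the test at log2 differences of 1.002, 1.09 and 1.65 (median of the 5: 1.09). PORB (AT4G27440), a light-dependent protochlorophyllide reductase, gave 850.2 and 404 in A. thaliana, 3793 and 3129 in A. lyrata, with 891 and 548 in the hybrid. The hybrid overlapped A. thaliana and lay below both A. lyrata arrays, and the difference from mid-parent was -1.52 ± 0.35 (adjusted p = 0.0386). With the spike-in controls set equal, PORB was not called (adjusted p = 0.112).

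Glucosinolates are the sulfur-rich defence compounds of the cabbage family. BCAT4 (AT3G19710), which starts the methionine chain elongation of aliphatic glucosinolates, gave 9431 and 3398 in A. thaliana, 299 and 193 in A. lyrata, with 9819 and 18573 in the hybrid. The hybrid arrays lay above all parent arrays, though not called against A. thaliana (adjusted p = 0.137), and 4.57-fold above mid-parent (2.19 ± 0.49, adjusted p = 0.0355). The other measured genes of that list were AOP1 and AOP3, which modify glucosinolate side chains. They did not pass the test, at 1.65 (adjusted p = 0.0809) and -0.86. UGT74B1 (AT1G24100), a glucosyltransferase of the glucosinolate core, gave 2048 and 1400 in A. thaliana, 183 and 116 in A. lyrata, with 2138 and 2634 in the hybrid. It was called above mid-parent (1.36 ± 0.31, adjusted p = 0.0388). BCAT4 and UGT74B1 lost their calls without A. thaliana replicate 2 and on the spike-in scale, at 1.48 and 1.396 for BCAT4 and 1.11 and 0.61 for UGT74B1.

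Among genes of metal nutrition, BHLH101 (AT5G04150), a transcription factor induced by iron deficiency, had the largest rise of any gene with a symbol. It gave 52.2 and 3.90 in A. thaliana, 6.22 and 20.2 in A. lyrata, with 334 and 498 in the hybrid. Its hybrid level was 16.8-fold above mid-parent (4.07 ± 0.70, adjusted p = 0.0151), and the parent signals lay near the offset. PYE, the other iron response gene measured, did not pass the test (-0.29). CCS (AT1G12520), the copper chaperone of superoxide dismutase, gave 529 and 425 in A. thaliana, 351 and 122 in A. lyrata, with 1038 and 1906 in the hybrid. It was the 1 of 4 zinc and copper genes called (2.01 ± 0.43, adjusted p = 0.0297), while ZIP6, ZIP9 and bZIP19 lay between -0.57 and 0.32. On the spike-in scale CCS was not called (1.55, adjusted p = 0.0906).

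The other named genes above mid-parent had varied roles. SKU5 (AT4G12420), a cell surface glycoprotein of directional growth, gave 458 and 169 in A. thaliana, 326 and 459 in A. lyrata, with 3436.5 and 2051.5 in the hybrid (7.78-fold, adjusted p = 0.0110). ARR15 (AT1G74890), a response regulator induced by cytokinin, gave 53.7 and 21.3, 157 and 70.5, and 353 and 426 in the same order (4.99-fold, adjusted p = 0.0253). SWEET17 (AT4G15920), a fructose transporter of the vacuole, gave 383 and 409, 293 and 208, and 1349 and 1788 (4.73-fold, adjusted p = 0.0164). In these genes both hybrid arrays lay above all 4 parent arrays. APS3 (AT4G14680), an ATP sulfurylase of sulfate assimilation, differed little between replicates and rose 2.50-fold, from parent signals between 642 and 841 to 1823 and 1891. TUA6 (AT4G14960), an alpha-tubulin with near-identical copies that may share its probes, gave 3983 and 4251 against 2732 and 2418 in A. thaliana and 566 and 643 in A. lyrata. Its call (1.37 ± 0.21) was lost on the spike-in scale (0.75).

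UGT84B1 (AT2G23260), which joins glucose to the auxin IAA, gave 87.7 and 138 in the hybrid and at most 22.6 on the parent arrays. Of all groups only this hybrid was bright enough for UGT84B1 to be tested. A rise was thus favoured by the filter, and its call is a description. MSRB6 (AT4G04840), a methionine sulfoxide reductase, gave 2118 and 673 in the hybrid against 619 and 152 in A. thaliana and 188 and 145 in A. lyrata. Both passed the test against mid-parent narrowly, at adjusted p of 0.0443 and 0.0481, and were not called against A. thaliana. Neither was called against mid-parent on the spike-in scale (adjusted p = 0.0783 and 0.0820).

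**Figure D3:**
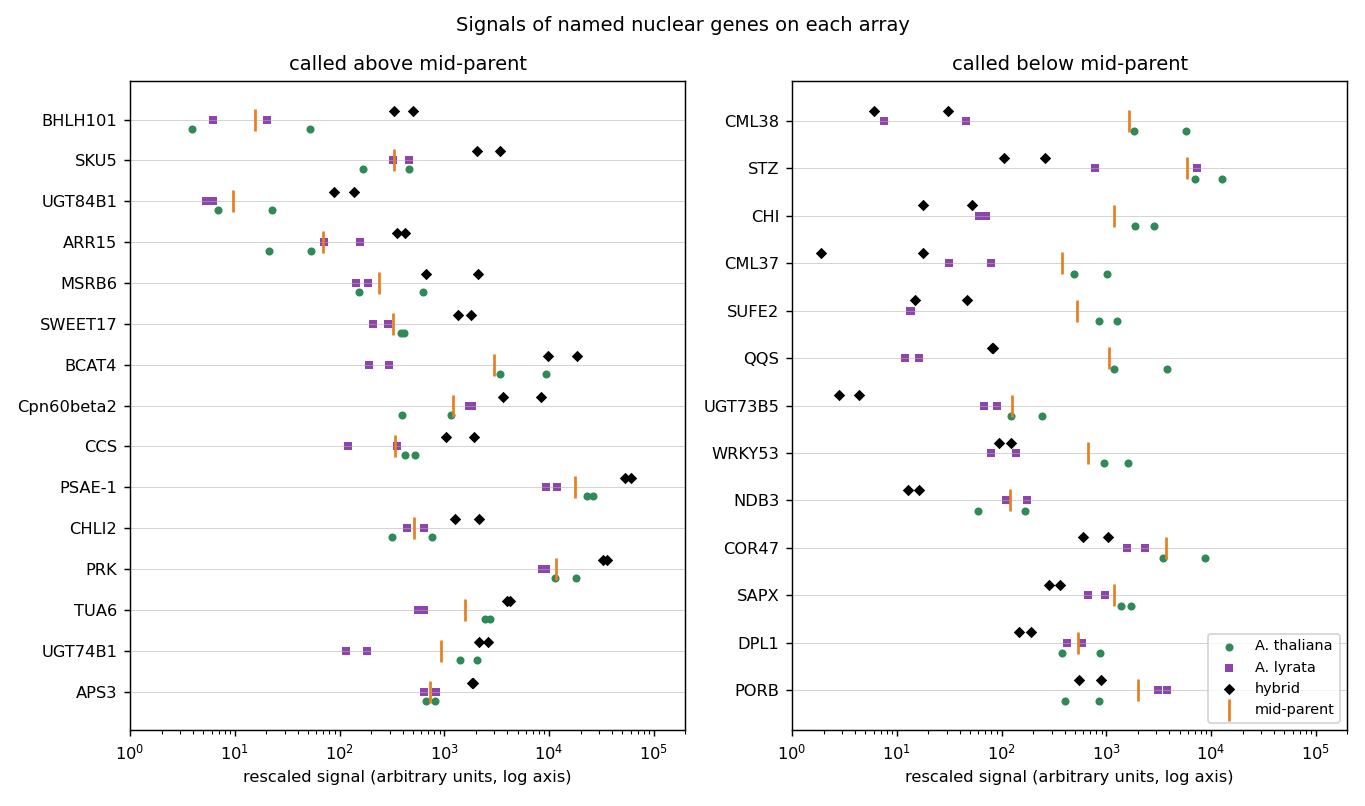
Rescaled signals (log axis, arbitrary units) of the named nuclear genes called above (left) and below (right) mid-parent. Each point is 1 array of A. thaliana (circles), A. lyrata (squares) or the hybrid (diamonds), and the orange bar is the mid-parent level. For CML38, CHI, SUFE2 and WRKY53 the hybrid arrays lie beside the A. lyrata arrays, and for PSAE-1, PRK, SKU5 and SWEET17 above all parent arrays.

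CML38, CML37 and STZ had some of the largest differences below mid-parent. CML38 (AT1G76650), a calmodulin-like calcium sensor, gave 1833 and 5763 in A. thaliana, 46.1 and 7.53 in A. lyrata, with 6.12 and 31.1 in the hybrid. The hybrid overlapped A. lyrata, and the difference from mid-parent was -6.05 ± 0.73 (66.1-fold, adjusted p = 0.00465). CML37 (AT5G42380), of the same family, gave 489 and 1015 in A. thaliana, 79.6 and 31.3 in A. lyrata, with 17.9 and 1.90 in the hybrid. It was called below both parents (-4.48 ± 0.53 from mid-parent, adjusted p = 0.00465). The call against A. lyrata was narrow (-1.79, adjusted p = 0.0450), and the hybrid signals lay near or under the offset. That call was lost with the spike-in controls set equal (-1.03, adjusted p = 0.222) and with quantile normalization (-1.46, adjusted p = 0.0711). STZ (AT1G27730), a zinc finger repressor induced by cold, salt and drought, gave 7060 and 12765 in A. thaliana, 7328 and 772 in A. lyrata, with 105 and 259 in the hybrid. Both hybrid arrays lay below all parent arrays even though the A. lyrata replicates differed widely (-5.08 ± 0.79, adjusted p = 0.0110).

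CHI (AT2G43570), a putative chitinase, gave 2876 and 1866 in A. thaliana, 70.8 and 60.5 in A. lyrata, with 17.8 and 52.6 in the hybrid. It did not differ from A. lyrata by the test (adjusted p = 0.208) and was 29.4-fold below mid-parent (adjusted p = 0.00262). WRKY53 (AT4G23810), a transcription factor of leaf senescence, gave 955 and 1624 in A. thaliana, 79.7 and 137 in A. lyrata, with 95.0 and 123 in the hybrid. The hybrid arrays lay between the A. lyrata arrays, 5.83-fold below mid-parent (adjusted p = 0.0195). The other senescence genes, WRKY6 and SAG101, did not pass the test at -1.16 and -1.37.

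COR47 (AT1G20440), a dehydrin induced by cold and drought, gave 3484 and 8663 in A. thaliana, 1579 and 2342 in A. lyrata, with 597 and 1043 in the hybrid. All hybrid values lay below all parent values (-2.22 ± 0.39, adjusted p = 0.0164), though the test against A. lyrata was not passed (adjusted p = 0.0659). It was the 1 gene called of 4 measured in the cold and drought list (3.72% of all probe sets were called below mid-parent). The median of that list was -2.14, beside -0.18 for all probe sets. COR15A, a cold-induced chloroplast protein, gave 12117 and 2374 in A. thaliana, 116 and 28.7 in A. lyrata, with 468 and 692 in the hybrid (-2.23, adjusted p = 0.111). COR15B and LTI30 were at -0.31 and -2.06 and were not called.

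Further genes below both parents came from several pathways. UGT73B5 (AT2G15480), a glucosyltransferase, gave 123 and 246 in A. thaliana, 90.3 and 68.4 in A. lyrata, with 4.36 and 2.84 in the hybrid, 10.6-fold below mid-parent (adjusted p = 0.00988). SAPX (AT4G08390), the ascorbate peroxidase of the chloroplast stroma, gave 1726 and 1368.5, 972 and 672, and 363 and 281 in the same order (3.59-fold, adjusted p = 0.00809). NDB3 (AT4G21490), an alternative NADH dehydrogenase of mitochondria, fell from parent signals between 59.3 and 174 to 16.3 and 12.7. DPL1 (AT1G27980), which breaks down sphingoid base phosphates, fell from between 375 and 872 to 148 and 190.4. For all of these the hybrid arrays did not overlap either parent. The hybrid signals of UGT73B5 lay under the offset and those of NDB3 near it, which bounds their folds.

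SUFE2 (AT1G67810), a sulfur acceptor of iron-sulfur cluster assembly, and QQS (AT3G30720), an A. thaliana orphan gene tied to starch content, were nearly absent from the A. lyrata arrays. SUFE2 gave 844 and 1274.5 in A. thaliana, 13.5 and 13.4 in A. lyrata, with 15.0 and 47.0 in the hybrid (-3.86 ± 0.73, adjusted p = 0.0209). QQS gave 1180.2 and 3804.5 in A. thaliana, 11.99 and 16.3 in A. lyrata, with 82.4 and 80.7 in the hybrid (-3.57 ± 0.71, adjusted p = 0.0252). The hybrid arrays lay above both A. lyrata arrays and far below both A. thaliana arrays, without passing the test against A. lyrata (0.70 for SUFE2 and 1.96 for QQS). Of all groups only A. thaliana was bright enough for SUFE2 and QQS to be tested. A fall from A. thaliana was thus favoured by the filter, and the calls of SUFE2 and QQS are a description. Both calls were lost without A. thaliana replicate 2, at -3.57 for SUFE2 and -2.74 for QQS.

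Most other lists held few measured genes and no call. GI (AT1G22770), a clock gene of flowering time, was the only clock gene measured. It gave 162 and 1162 in A. thaliana, 1033 and 1140 in A. lyrata, with 557 and 447 in the hybrid, and did not pass the test (-0.60 ± 0.60, adjusted p = 0.597). It was called below mid-parent without A. thaliana replicate 1 (-1.16). No member was called among 3 anthocyanin and flavonoid, 4 starch, 4 jasmonate and ethylene, 2 flowering, 2 guard cell, 2 root, 1 trichome, 1 vascular, 1 salicylic acid and 1 heat shock genes, or among 3 probe sets of the DNA demethylase DME. TUA6 was the 1 conserved reference gene called of 4. The lists of flower, seed and cell division markers had no tested member. With so few genes measured, a list without a call does not speak for its whole pathway. UGT78D2, ORA47 and AMY1, which were not among the tested members of these lists, were called below mid-parent.

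Of the 38 named genes, 32 lost their call without hybrid replicate 1 and 20 without hybrid replicate 2, while all that could be fitted kept their direction. CHI, CML37, ycf3, petG and ccb382 stayed called under each of the 19 alternatives run.

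Most chloroplast-encoded genes lay nearer the A. thaliana than the A. lyrata level in the hybrid. The chloroplast genome holds genes of the photosystems, the cytochrome b6f complex, ATP synthase, the NDH complex, ribosomes and a bacterial-type RNA polymerase. Of 68 such probe sets tested, 15 were called below mid-parent (3.72% of all probe sets were) and 2 above (1.67%). Their median was -0.40 beside -0.18 for all. On the main scale A. lyrata was called higher than A. thaliana for 44 of the 68 (25.8% of all probe sets were) and lower for 4 (17.2%). These parental counts are not given for the spike-in scale. The median of the 68 was 0.45 against A. thaliana and -0.92 against A. lyrata on the main scale. With the spike-in controls set equal, these medians were -0.38 and 0.08, beside -0.75 and 0.78 for all probe sets. The hybrid was called lower than A. lyrata for 30 of them (10.2% of all probe sets were) and higher for 4 (10.3%). With the spike-in controls set equal the counts were 15 and 13, beside 168 and 5172 of all 15874 probe sets. The hybrid was called higher than A. thaliana for 9 (6.6% of all probe sets were) and lower for 0 (4.95%). With the spike-in controls set equal these became 0 and 8, beside 343 and 4026 of all 15874. For 46 of 68 (67.6%) the hybrid was nearer A. thaliana on the log2 scale, against 55.6% of all probe sets. All 17 called against mid-parent differed from A. lyrata by the test and not from A. thaliana.

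The largest differences were in genes that were faint in A. thaliana. ycf3, which helps assemble photosystem I, gave 156 and 240.2 in A. thaliana, 13485 and 13079 in A. lyrata, with 282 and 180.3 in the hybrid. The hybrid overlapped A. thaliana and lay 28.7-fold below mid-parent (-4.84 ± 0.30, adjusted p = 0.000343). rpoB, the beta subunit of the plastid RNA polymerase, gave 12.5 and 142 in A. thaliana, 4502 and 7204 in A. lyrata, with 85.3 and 86.1 in the hybrid (-4.92 ± 0.70, adjusted p = 0.00787). petG, a small subunit of the cytochrome b6f complex, gave 535 and 239.7, 9220.1 and 8911, and 364 and 429.7 in the same order (-3.54 ± 0.37, adjusted p = 0.00385). In each of these genes the hybrid lay within or next to the A. thaliana values and more than 10-fold under both A. lyrata arrays.

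accD, a subunit of the acetyl-CoA carboxylase of fatty acid synthesis, gave 651 and 1534 in A. thaliana, 6574 and 5992 in A. lyrata, with 495 and 827 in the hybrid (-2.49 ± 0.37, adjusted p = 0.00984). rpl14, a ribosomal protein, gave 693 and 1265, 8893 and 10370, and 1610.3 and 938 in the same order (-2.09 ± 0.34, adjusted p = 0.0133). The calls above mid-parent were genes brighter in A. thaliana. ndhD, of the NDH complex, gave 8345 and 7466 in A. thaliana, 1372 and 1152 in A. lyrata, with 10339 and 14140 in the hybrid (1.4002 ± 0.23, adjusted p = 0.0139). rps4, a ribosomal protein, gave 9656 and 8468, 1498 and 1759, and 14121 and 11300 (1.24 ± 0.26, adjusted p = 0.0284). In these genes the hybrid arrays lay above every parent array. On the spike-in scale ndhD (0.71), rps4 (0.57) and rpl14 (-1.37) were not called, and 0 of 15 ribosomal protein genes were.

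By complex, the photosystem, cytochrome b6f, ATP synthase and Rubisco genes had 11 of 35 below and 0 above mid-parent. Over all probe sets the shares were 3.72% below and 1.67% above. The 11 below are named next. These were ycf3, petG, psbT, psbF, psbB, psbL, psbJ, psbN, psaI, atpI and atpF. rbcL, the large subunit of Rubisco, was level across groups, at 2484 and 2482 in A. thaliana, 2378 and 3261 in A. lyrata, with 2436 and 2376 in the hybrid. Ribosomal protein genes had 2 of 15 below (rpl14 and rpl16) and 1 above (rps4), RNA polymerase genes 1 of 4 below, NDH genes 1 of 9 above, and the 5 others 1 below (accD). Among 22 chloroplast genes at least 4-fold brighter in A. lyrata, the hybrid stood at a median of 92.2% and 90.5% of the way to A. thaliana on hybrid arrays 1 and 2. The same medians over all such probe sets were 71.5% and 71.1%.

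The chloroplast counts moved with the arrays and the scale. Without hybrid replicate 1, 0 were above and 2 below mid-parent, and on the spike-in scale 0 and 8. Over all 15874 probe sets tested on both scales, the spike-in scale gave 178 above and 674 below. Of all 68, 46 were also nearer A. thaliana on the spike-in scale, against 8147 of the 15874. Organelle transcripts are mostly without long poly(A) tails, so their signals depend on how they were primed in labelling, and whether that differed between samples was not tested.

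**Figure D4:**
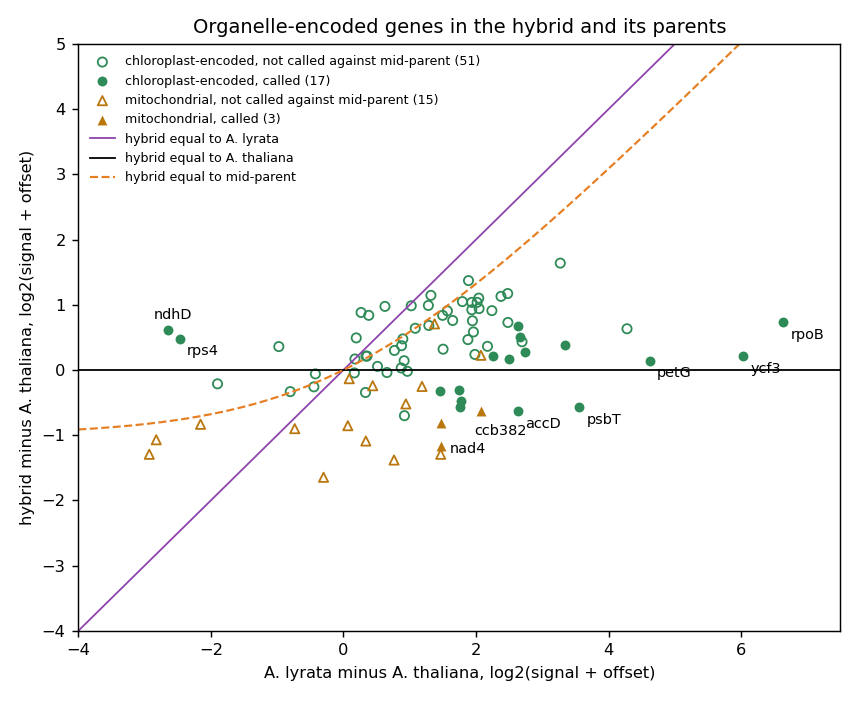
Each symbol is a chloroplast-encoded (circle) or mitochondrial (triangle) probe set. The x axis is A. lyrata minus A. thaliana and the y axis hybrid minus A. thaliana, both on log2(signal + offset). Filled symbols, the 17 chloroplast and 3 mitochondrial probe sets called against mid-parent, lie near or below the line of A. thaliana levels and away from the purple line of A. lyrata levels.

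Most mitochondrial probe sets lay below mid-parent in the hybrid. Of 18 probe sets for 14 genes, 3 were called below mid-parent (3.72% of all probe sets were) and 0 above (1.67%), with a median of -1.02 beside -0.18 for all. Both hybrid arrays were below mid-parent for 15 of the 18, against 7843 of all 16656. nad4, a subunit of respiratory complex I, gave 2245 and 1246.5 in A. thaliana, 5552 and 3914.5 in A. lyrata, with 778 and 706 in the hybrid. ccb382, of cytochrome c biogenesis, gave 405 and 322, 1583 and 1533, and 266 and 197 in the same order. In both genes the hybrid arrays lay below every parent array, at -2.08 ± 0.31 (adjusted p = 0.0101) and -2.02 ± 0.25 (adjusted p = 0.00491), without passing the test against A. thaliana (adjusted p = 0.0587 and 0.153). Calls against A. thaliana depended on the scale. Of the 18 probe sets, 0 were called lower than A. thaliana on the main scale. With the spike-in controls set equal 9 were, beside 4026 of all 15874. Copies of mitochondrial genes in the A. thaliana nucleus could share these probes.

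The A. thaliana-A. halleri hybrid offered a second cross with the same A. thaliana arrays. The deviation from mid-parent was called higher in the A. lyrata cross than in the A. halleri cross for 50 probe sets (0.3%) and lower for 123 (0.738%). With the spike-in controls set equal the total was 393 in place of 173. Among the named genes the difference was called for 8. All named genes but GI were chosen among those called in the A. lyrata cross, which is 1 side of this difference. The count and the sizes are therefore a description. Values are set side by side because both crosses share the A. thaliana arrays.

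CML38 gave 6.12 and 31.1 in the A. lyrata cross and 2199.5 and 1103 in the A. halleri cross, whose A. halleri parent gave 134 and 154. Its deviations were -6.05 and -0.12 (difference -5.92 ± 0.73, adjusted p = 0.00685). SAPX gave 363 and 281 in the A. lyrata cross and 2242 and 2202 in the A. halleri cross, with 1018 and 1426 in A. halleri (difference -2.54 ± 0.32, adjusted p = 0.00686). CHI gave 738 and 1321 in the A. halleri cross and at most 52.6 in the A. lyrata cross. The parents differed too, at 2385 and 1492 in A. halleri and 70.8 and 60.5 in A. lyrata. Deviations of CHI were -4.88 in the A. lyrata cross and -1.08 in the other (difference -3.79 ± 0.51, adjusted p = 0.00947). These genes were therefore lower against mid-parent in the A. lyrata cross than in the other.

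BHLH101 went opposite ways, at 334 and 498 in the A. lyrata cross and 5.79 and 5.89 in the A. halleri cross, where A. halleri itself gave 389 and 132. Its deviations were 4.07 and -3.14 (difference 7.20 ± 1.02, adjusted p = 0.0118), and the second did not pass its own test (adjusted p = 0.0906). By contrast PRK, PSAE-1 and BCAT4 deviated by 1.39, 0.97 and 1.74 in the A. halleri cross. Only PRK passed its own test there (adjusted p = 0.0360), while PSAE-1 (0.0681) and BCAT4 (0.113) did not. No difference between the crosses was called for these genes (0.17 ± 0.29, 0.72 ± 0.25 and 0.45 ± 0.51). For ycf3 the deviations were -4.84 and -3.05, and for rps4 1.24 and 2.32, again without a called difference (adjusted p = 0.0929 and 0.139).

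**Figure D5:**
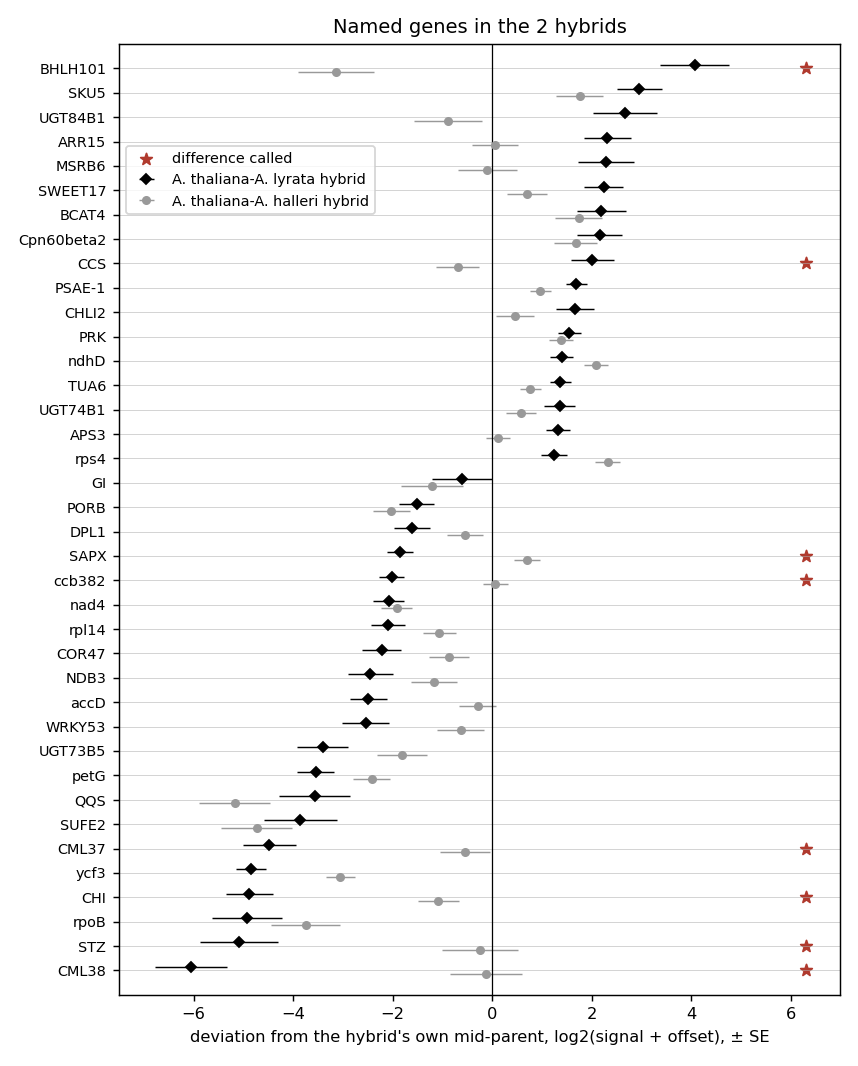
Deviations of the 38 named genes from each hybrid's own mid-parent, as log2 differences ± SE, for the A. lyrata cross (black) and the A. halleri cross (grey). Red stars mark the 8 genes whose deviations differed by the test, among them BHLH101 at 4.07 and -3.14 and CML38 at -6.05 and -0.12. All genes but GI were chosen among those called in the A. lyrata cross, so the stars are a description.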

How the data were processed

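The authors deposited intensity values on a linear scale, 1 signal per probe set, for which the submitters' processing notes name GCOS and MAS5 without versions. Per the labels' protocols, 500 ng of total RNA went into biotin-labelled cRNA. As deposited, 5 arrays had a 2% trimmed mean signal of 500. It was 136 for A. thaliana replicate 2, 32.8 and 24.3 for the A. lyrata arrays and 55.8 and 50.5 for the arrays of their hybrid, so all arrays were rescaled to 500. Precision is limited by the number of arrays.

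Leaving aside 64 controls, a probe set was tested if some group had a mean log2 signal at or over the 40th percentile (signal 104). A gene that passed through its bright group alone was thus bound to differ somewhat. limma 3.58.1 under R 4.3.3 fitted 1 level per group (lmFit, then eBayes with trend) to log2(signal + 9.24). The added constant is the 10th percentile of signals. The 10 arrays shared 1 estimate of the spread (residual df 5, prior df 4.72), since 2 arrays a group leave few degrees of freedom. The arithmetic mean of the parents' fitted signals was the mid-parent level, and its SE came from the delta method. Group levels are means of log2 values over 2 arrays. Labels call the arrays biological replicates without saying what was repeated. The procedure was tested on simulated data.

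Gene names came from a partial probe annotation. A single gene was paired with 13513 probe sets, several with 503 and none with 8730. Names were updated for 13436 through a RefSeq table (assembly TAIR10.1). No coordinates or sequences are given. The text names, of the called probe sets that have 1 symbol, those with the 8 largest differences each way, 5 above and 5 below both parents by smallest p, at most 2 called members of a list, and also GI. Others named in the text were chosen after their values were seen. The genes and the 26 lists were chosen with earlier results of these data known. Of 455 loci listed, 61 had a probe set. Chloroplast genes were taken by their place on the plastid chromosome in the gene table, and mitochondrial genes by symbol, in place of the locus prefixes first planned, which the tables do not use. Other scalings, offsets, filters, mid-parent means, arrays and thresholds were run as alternatives. The counts of chloroplast-encoded genes under them were added after the data were seen.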

Additional observations from a re-analysis of the deposited data

Results flagged for a closer look

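For 8 named genes the deviation from mid-parent was called different between the A. thaliana-A. lyrata hybrid and the A. thaliana-A. halleri hybrid. Each had an adjusted p under 0.05 in a test of the difference itself, with the SE from the delta method. All named genes but GI were chosen among those called in the A. lyrata cross. That choice favours such a difference, so the number of genes and the sizes are a description. On the log2 scale, the A. lyrata cross minus the A. halleri cross gave 7.20 for BHLH101, 2.71 for CCS, -2.09 for ccb382, -2.54 for SAPX, -3.79 for CHI, -3.94 for CML37, -4.84 for STZ and -5.92 for CML38. For CCS the hybrid arrays gave 1038 and 1906 in the A. lyrata cross and 186 and 254 in the A. halleri cross. For STZ they gave 105 and 259 against 8173 and 4486. For CML37 they gave 17.9 and 1.90 against 1607 and 1217, while the parents gave 79.6 and 31.3 in A. lyrata and 3905 and 2901 in A. halleri. For ccb382 the hybrid arrays gave 266 and 197 against 1015 and 1136.5. The arrays of the crosses also differ in the scale at which they were deposited, and what part that had was not tested.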

How the results depend on the processing

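Few arrays limit all counts, and the offset bounds folds of faint genes. No probe set called against mid-parent was called in the opposite direction under any of the 20 alternatives. Leaving out 1 array at a time gave 2 to 1040 probe sets above mid-parent, 34 to 1714 below, 6 to 453 above both parents and 11 to 348 below both. The lowest came without hybrid replicate 1 and the highest without A. thaliana replicate 1. Spike-in scaling gave 180 above mid-parent, 63 below both parents and 393 different deviations in the 2 hybrids (main 173). A geometric mid-parent gave 544 above and 398 below. Only the 6 arrays of the cross gave 36 above and 125 below mid-parent, 29 above and 33 below both parents. Without the variance trend, 122 were above mid-parent and 73 above both parents. An adjusted p under 0.01 left 19 above and 86 below mid-parent, 14 above and 9 below both, and 49 different deviations.

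Values as deposited, whose scales differ between arrays, gave 9 above and 3574 below mid-parent, 4 above and 24 below both parents, and 4023 different deviations. They turned the sign of BCAT4 to -0.051, PSAE-1 to -0.16, APS3 to -0.12, PRK to -0.14, TUA6 to -0.65, UGT74B1 to -0.82, ndhD to -0.71 and rps4 to -0.84. The median of all probe sets was then -1.22, which follows from the deposited scales. With the deposited scale (500 or lower) as a block, 1032 were above and 1696 below mid-parent, 456 above and 346 below both. Within the arrays of lower scale alone the counts were 807, 1192, 378 and 242. Both compare with A. thaliana replicate 2 alone, 1 array assumed to vary like the others.

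Replicate numbers are shared between groups, and nothing in the labels says that they mark a batch. Deviations of same-numbered arrays correlated at -0.126 to 0.264 between groups. A replicate block gave 276 above and 557 below mid-parent, and 148 different deviations. Under quantile normalization, other offsets and other filters, the counts against mid-parent, outside both parents and of different deviations stayed within 1.5 times their main values. Calls higher than A. thaliana did not. Among chloroplast-encoded genes they went from 9 to 2 with quantile normalization and to 1 with no filter. Over all probe sets tested on both occasions they went from 1100 to 704 of 16137 and to 778 of 16656. The cause of these shifts was not tested.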

Other observations

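Some called genes outside the naming rule were picked after their values were seen. Among gene families with at least 7 tested probe sets, grouped by the letters that open the symbol, the calmodulin-like CML genes had 3 of 7 below mid-parent and 0 above, with a median of -1.92, where 3.72% of all probe sets were below and 1.67% above with a median of -0.18. The third, CML41, gave 869 and 1542.5 in A. thaliana, 233 and 148 in A. lyrata, with 92.8 and 85.8 in the hybrid. The UGT glycosyltransferases had 4 of 32 below and 2 above (median -0.44). SDH2-1 and SDH2-2, iron-sulfur subunits of succinate dehydrogenase, were called below mid-parent at -1.31 and -1.34. SDH2-1 gave 2238 and 1491 in A. thaliana, 1238.5 and 802 in A. lyrata, with 580 and 549 in the hybrid. SDH2-2 gave 1032 and 1129.5, 3170 and 3530, and 805 and 937 in the same order.

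CHAT, which forms the leaf volatile hexenyl acetate, gave 31.7 and 21.6 in A. thaliana, 5738 and 4845 in A. lyrata, with 173 and 383 in the hybrid, 9.96-fold below mid-parent (adjusted p = 0.00520). BSMT1, which methylates benzoic and salicylic acid, gave 612 and 331 in A. lyrata and at most 33.9 in the hybrid. Of all groups only A. lyrata was bright enough for BSMT1 to be tested. A level below mid-parent was thus favoured by the filter, and these values are a description. ECS1 gave 33464 and 34720 in A. thaliana, 830.5 and 530 in A. lyrata, with 50035 and 64808 in the hybrid, at 1.71 above mid-parent. CaS, the calcium sensing protein of chloroplasts, and NdhL, a nuclear-encoded NDH subunit, were called above mid-parent at 1.48 and 1.28. FTSZ2-2, of chloroplast division, and PDF1B, a peptide deformylase, were called above both parents at 1.23 and 1.24 from mid-parent.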
